A study of Macaca mulatta with 24 samples.

Results

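The circadian clock genes described here are 10 genes of the feedback loop that gives most cells a rhythm of about a day. They are *CLOCK*, *NPAS2*, *PER1*, *PER2*, *PER3*, *CRY1*, *CRY2*, *NR1D1*, *NR1D2* and *DBP*. Each was taken as the row of the count table whose Ensembl identifier carries that symbol, and each symbol had 1 identifier among the 32386 genes of the table. Of the 10, 9 passed the filter on low counts and were tested with 15207 genes in all. *CLOCK* was left out by the filter. The samples were visceral (omental) white adipose tissue (WAT) biopsies of 24 female rhesus macaques, 6 in each of 4 groups, taken once per animal after 3 years of treatment. Control animals (*C*) carried cholesterol implants and ate monkey chow, and *T* animals carried testosterone implants on the same chow. *WSD* animals carried cholesterol implants and ate a high-fat Western-style diet, and *T* + *WSD* animals had testosterone implants and that diet. The labels give every animal an age of 4 years, no genetic change was made, and the animals had been picked from larger groups for having the metabolic state typical of their treatment. The study's methods put the animals at an older age at the biopsy than the labels do. The hour of the biopsy is not given in the sources used here, so neither the phase nor the amplitude of a rhythm was measured, and a level is that of 1 moment in 1 animal.

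No clock gene passed the thresholds in *T*, *WSD* or *T* + *WSD* against *C*, which asked for a fold change over 1.5 together with an adjusted p under 0.05. Averaged over hormone states, *DBP* was lower on the Western-style diet than on chow, by 0.60 on the log2 scale, at the edge of the fold threshold. Within groups, *PER2*, *PER3*, *CRY2*, *NR1D2* and *DBP* tended to be high in the same animals, and in those animals *ARNTL*, the gene of the activator BMAL1, tended to be low.

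In the clock loop, a dimer of BMAL1 with CLOCK, or with the related protein NPAS2, binds E-box sequences and switches on the PER and CRY genes. The PER and CRY proteins build up, enter the nucleus and shut the dimer off, and their decay lets the next cycle begin. In a second arm, NR1D1 and NR1D2 (the REV-ERB receptors) repress *ARNTL*, and the ROR receptors activate it. *DBP*, with its relatives *TEF* and *HLF*, is a direct target of the dimer that passes the rhythm on to metabolic genes through D-box sequences. In adipose tissue this loop is known to time lipid storage and release, and the activators peak when most of their targets are low.

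Library totals ran from 6899185 to 28270776 counts, with a median of 20630512.5. In 8 libraries, 2 in each group, a single gene, ENSMMUG00000038258, took 9.92% to 54.7% of the counts, against 0.879% to 2.51% in the other 16. Levels are CPM, counts scaled to a common library size with TMM factors and not per length, so they are compared between animals and never between genes. The 9 tested mesothelium markers (the cells that line the omentum) summed to 2722 to 38893 CPM in *C* and 2784 to 17570 in *T*. On the Western-style diet the sums were 707 to 5977 in *WSD* and 235 to 3070 in *T* + *WSD*. The sums weigh *ITLN1* heavily. Its highest count in a library was 622935, against 30387 for *MSLN*, the next highest of the 9. Of these 9, 8 were called lower in *T* + *WSD* than in *C*, beside 5.29% of all tested genes, and 8 were called lower for the averaged diet, beside 2.87%. The ninth, *CALB2*, had positive log2 fold changes in these comparisons, 0.28 and 0.80, and was not called. It lay above every control in 3 *WSD* and 3 *T* + *WSD* animals and below every control in 0. The 7 adipocyte markers summed to 2661 to 13854 CPM in *C* and 13507 to 20918 in *T* + *WSD*, and 2 of the 7, *FABP4* and *LEP*, were called higher, beside 4.72% of all tested genes. In the same comparison 3 of 5 endothelium markers and 2 of 5 markers of smooth muscle and pericytes were called higher. For the averaged diet 1 of 7 adipocyte markers, 1 of 5 markers of smooth muscle and pericytes and 0 of 5 endothelium markers were called higher. In that comparison 370 of all 15207 tested genes were called higher. The part of these differences in the clock gene values was not tested beyond the values given below. In whole tissue, fewer cells of a type and less RNA per cell cannot be told apart.

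Of the activators, *CLOCK* (ENSMMUG00000001919) was close to absent from the table. Its row held 0 to 2 counts per library, with group totals of 2 (*C*), 3 (*T*), 4 (*WSD*) and 3 (*T* + *WSD*). These are within the floor of 3 counts per library, so no fold change is given, and whether other reads of the gene were counted elsewhere is not known from this table. *NPAS2* (ENSMMUG00000009871), which can take the place of CLOCK in the dimer, was low, with 6 to 130 counts per library. Its lowest, median and highest CPM were 2.46, 3.06 and 4.72 in *C*, and 2.07, 3.92 and 5.66 in *T*. They were 2.56, 3.87 and 5.22 in *WSD*, and 1.70, 2.51 and 4.47 in *T* + *WSD*. The *T* animals fell in 2 sets of 3, at 2.07 to 2.56 and 5.27 to 5.66, and every group overlapped every other. The mean was 3.24 ± 0.865 CPM in *C* (SD, n = 6) and 2.82 ± 1.10 in *T* + *WSD* (SD, n = 6), a log2 fold change of -0.18 (SE 0.30, adjusted p = 0.736).

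Among the repressors, *PER1* (ENSMMUG00000021798), a gene that also answers quickly to glucocorticoids and other signals, had the widest spread of the 9. Its lowest, median and highest values were 23.8, 39.0 and 57.9 CPM in *C*, 21.5, 47.1 and 64.4 in *T*, and 15.6, 33.6 and 43.0 in *T* + *WSD*. In *WSD* they were 16.9, 32.5 and 132, and *WSD* animal 20 alone set the highest value, since the next was 38.3. That animal brought the *WSD* mean to 46.8 ± 42.5 CPM (SD, n = 6), against 40.4 ± 12.8 in *C*, and the log2 fold change of *WSD* against *C* was 0.21 (SE 0.38, adjusted p = 0.814). Without that animal its sign turned, to -0.44 (SE 0.28, adjusted p = 0.490).

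*PER2* (ENSMMUG00000018930), a main repressor of the dimer, had lowest, median and highest values of 45.4, 60.8 and 70.0 CPM in *C* and 34.3, 58.7 and 103 in *T*. They were 30.7, 47.7 and 63.2 in *WSD*, and 25.1, 41.5 and 52.7 in *T* + *WSD*. The groups overlapped, but 3 *WSD* and 3 *T* + *WSD* animals lay below every control and none above. *T* + *WSD* against *C* gave a log2 fold change of -0.54 (SE 0.24, adjusted p = 0.125).

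*PER3* (ENSMMUG00000018562), the third of the PER genes and the least needed for the rhythm itself, had 70.1, 83.3 and 130 CPM in *C*, and 62.3, 89.3 and 127 in *T*. The values were 61.4, 71.9 and 93.2 in *WSD*, and 56.5, 70.3 and 89.5 in *T* + *WSD*. The groups overlapped, with 3 *T* + *WSD* animals below the lowest control, and the log2 fold change of *T* + *WSD* against *C* was -0.40 (SE 0.18, adjusted p = 0.133).

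*CRY1* (ENSMMUG00000021808), the strongest repressor of the dimer and a gene whose peak follows those of the other targets, had 30.0, 39.2 and 49.99 CPM in *C* and 25.7, 33.7 and 43.5 in *T*. The values were 21.2, 38.1 and 44.5 in *WSD*, and 23.9, 29.1 and 33.7 in *T* + *WSD*. The *T* + *WSD* animals filled a narrow band at the bottom of the control range, with 3 of the 6 below every control. The mean was 39.3 ± 7.95 CPM in *C* (SD, n = 6) and 28.9 ± 3.99 in *T* + *WSD* (SD, n = 6). Its log2 fold change in that comparison was -0.44 (SE 0.16) and its adjusted p of 0.0659 was the smallest of the 9. With the mesothelium marker level as a covariate the log2 fold change was -0.01 (SE 0.23).

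*CRY2* (ENSMMUG00000002453), the other cryptochrome, varied least, with a highest value 1.998 times the lowest over all 24 animals. Its lowest, median and highest values were 85.9, 117 and 139 CPM in *C* and 93.4, 151 and 160 in *T*. On the Western-style diet they were 80.2, 115 and 132 without testosterone and 85.2, 115 and 139 with it. In *T*, 4 of the 6 animals lay above every control, and the log2 fold change of *T* against *C* was 0.28 (SE 0.15, adjusted p = 0.595).

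*NR1D1* (ENSMMUG00000002933), the gene of REV-ERBα, had 5.31, 9.67 and 13.8 CPM in *C*, and 8.90, 13.3 and 30.2 in *T*. The values were 8.36, 9.48 and 15.2 in *WSD*, and 5.50, 10.9 and 14.2 in *T* + *WSD*. The high values were those of 3 *T* animals, at 16.4, 24.1 and 30.2 CPM, while the other 3 were among the controls. In *T* against *C* the log2 fold change was 0.73 (SE 0.29), with an unadjusted p of 0.0219 and an adjusted p of 0.547. Over the fits that left out 1 animal it ran from 0.47, without *T* animal 14, to 0.85. *NR1D2* (ENSMMUG00000022240), the gene of REV-ERBβ, had 179, 242 and 315 CPM in *C* and 163, 264 and 337 in *T*. The *WSD* values were 133, 224 and 268, and those of *T* + *WSD* 159, 212 and 255. Its groups overlapped throughout, and the log2 fold change of *T* + *WSD* against *C* was -0.18 (SE 0.18, adjusted p = 0.528).

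*DBP* (ENSMMUG00000022160), the output factor of the set, had 17.3, 30.4 and 35.1 CPM in *C*, and 17.8, 30.8 and 46.9 in *T*. The values were 14.9, 19.995 and 35.8 in *WSD*, and 15.1, 18.3 and 23.8 in *T* + *WSD*. Of the 6 *T* + *WSD* animals, 3 lay below every control, and the lowest control, animal 5 at 17.3 CPM, lay inside their range. On chow the means were 28.3 ± 6.55 CPM in *C* and 32.8 ± 11.9 in *T* (SD, n = 6). The *WSD* mean was 21.8 ± 7.66 (SD, n = 6) and that of *T* + *WSD* 18.6 ± 3.68 (SD, n = 6). By group mean the order was *T*, *C*, *WSD* and *T* + *WSD*, as it was for *PER2*, *PER3* and *NR1D2*, and neighbours in it overlapped. By group median *PER2* was higher in *C* than in *T*.

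**Figure D1:**
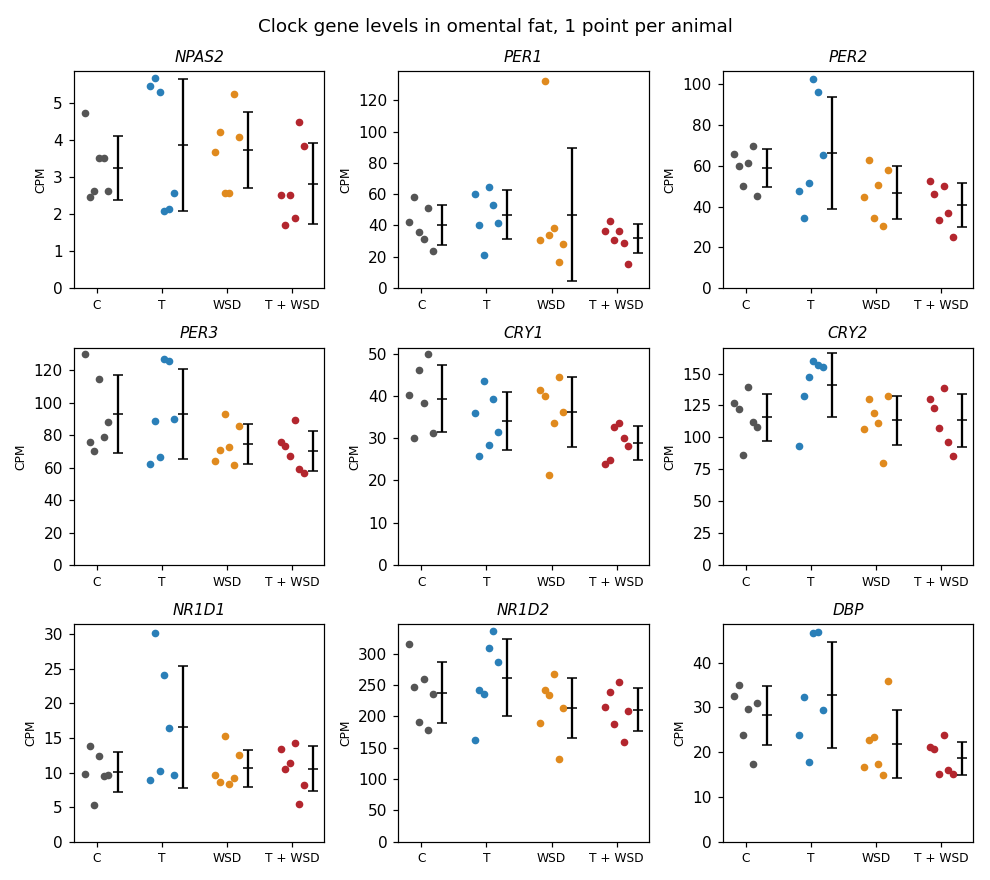
Level of the 9 tested clock genes (CPM after TMM scaling, linear axes from 0) in the 4 groups, with 1 point per animal and the mean ± SD of 6 animals to the right of each group. The points of all groups overlap for every gene. *PER1* in *WSD* animal 20 stands at 132 CPM, and *DBP* in *T* + *WSD* stays at or under 23.8 CPM.

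The question behind *T* + *WSD* against *C* is what the combined treatment did. Of the 9 clock genes, 0 were called, where 10% of all tested genes were. By edgeR, 4 of the 9 had an unadjusted p under 0.05 (*CRY1*, *DBP*, *PER2* and *PER3*), beside 32.1% of all tested genes. DESeq2 called 0 of the 9, beside 1894 of the 17391 genes it tested. A negative log2 fold change was found for 8 of the 9, with a median of -0.35 against -0.04 over all tested genes, and only *NR1D1* was positive, at 0.07 (SE 0.30). Its sign turned without *C* animal 3 or *T* + *WSD* animals 7 or 10, to as low as -0.06. *CRY2*, at -0.03, turned without *C* animals 1, 2 or 4 or *T* + *WSD* animals 11 or 12, to at most 0.04. For *DBP* it was -0.60 (SE 0.24, adjusted p = 0.0825). Without *C* animal 5, *DBP* was called, at -0.71 with an adjusted p of 0.0383, and a fit on these 2 groups alone called it too, at -0.60 with an adjusted p of 0.0388. Over the alternatives other than leaving out 1 animal, its adjusted p ran from 0.0270 to 0.9999. Among these, the fit with the mesothelium marker level as a covariate called 0 of all tested genes.

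The diet alone and the hormone alone were each set against *C*. In *WSD*, 0 of the 9 were called, as for all tested genes (0%), and 0 had an unadjusted p under 0.05 (18.5% of all tested genes). The median log2 fold change was -0.13, against -0.02 over all tested genes. In *T*, 0 of the 9 were called, again beside 0%, and *NR1D1* alone had an unadjusted p under 0.05 (8.63% of all tested genes). The log2 fold change of *T* was positive for 8 of the 9, with *CRY1* at -0.21 (SE 0.16) as the exception. The median of the 9 was 0.22, against -0.02 over all tested genes. *PER3*, at 0.01, was below 0 without *C* animals 2, 3, 5 or 6 or *T* animals 16 or 17, down to -0.10. DESeq2 called 0 of the 9 in both comparisons.

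Testosterone on the Western-style diet was read from *T* + *WSD* against *WSD*. Of the 9, 0 were called, where 0.815% of all tested genes were, and by edgeR 0 had an unadjusted p under 0.05 (20% of all tested genes). The lowest log2 fold change was that of *PER1*, -0.56 (SE 0.38, adjusted p = 0.434), and it rested on *WSD* animal 20, without which it was 0.09 (SE 0.28, adjusted p = 0.910). The interaction of testosterone and diet asks whether testosterone acted differently on the 2 diets, at an adjusted p under 0.1. Of the 9, 0 were called, where 0.809% of all tested genes were, and 0 had an unadjusted p under 0.05 (13.5%). All 9 interaction estimates were negative, from -0.77 (*PER1*, SE 0.54) to -0.10 (*PER3*, SE 0.26). Their median was -0.39, against -0.02 over all tested genes. The smallest adjusted p was 0.452 for *NR1D1*, at -0.75 (SE 0.42). Without *WSD* animal 20 the estimate of *PER1* was -0.13 (SE 0.38), and without *T* animals 16 or 17 that of *PER3* turned, to at most 0.01. DESeq2 called 0 of the 9 in both.

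The effect of the diet averaged over the 2 hormone states sets the 12 animals on the Western-style diet against the 12 on chow. Of the 9 clock genes, 1 was called, *DBP*, where 5.30% of all tested genes were, 2.87% of them lower. *DBP* stood at 30.5 ± 9.47 CPM on chow (SD, n = 12), with a range of 17.3 to 46.9, and at 20.2 ± 5.96 on the Western-style diet (SD, n = 12), with a range of 14.9 to 35.8. Its log2 fold change was -0.60 (SE 0.17, adjusted p = 0.0281). *PER2* stood at 62.6 ± 20.1 CPM on chow and 43.8 ± 11.8 on the Western-style diet, a log2 fold change of -0.52 (SE 0.17, adjusted p = 0.0479) that is under the fold threshold. Without a fold threshold both count, 2 of 9 beside 11.9% of all tested genes. *PER3* followed at -0.36 (SE 0.13, adjusted p = 0.0701). All 9 log2 fold changes were negative, with a median of -0.24 against -0.01 over all tested genes, and the smallest in size was that of *NPAS2*, -0.11 (SE 0.21). *PER1*, at -0.18 (SE 0.27), was at -0.50 (SE 0.19, adjusted p = 0.0925) without *WSD* animal 20.

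The call of *DBP* was close to the fold threshold and moved across it. It was lost in 11 of the 24 fits that left out 1 animal, those without *C* animals 1, 2 or 6, *T* animals 16 or 17, *WSD* animals 19, 22 or 23, or *T* + *WSD* animals 9, 11 or 12. In these fits the log2 fold change was between -0.58 and -0.53, and the adjusted p passed the threshold of 0.05 in all but the one without *T* animal 17, at 0.0515. Over all 24 fits the range was -0.70 to -0.53. DESeq2 gave -0.58 with an adjusted p of 0.0110, also under the fold threshold. Without *T* animal 14, *PER2* was called as well, at -0.59 with an adjusted p of 0.0193. With the mesothelium marker level as a covariate, the log2 fold change of *DBP* was -0.63 (SE 0.24), and no gene of the whole table was called in that fit. In the 16 libraries with a low share of the most abundant gene it was -0.57, with an adjusted p of 0.127, while *PER2* was called there, at -0.75 with an adjusted p of 0.0347.

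The effect of testosterone averaged over the 2 diets called 0 of the 9, as for all tested genes (0%), and *CRY1* alone had an unadjusted p under 0.05 (16.5% of all tested genes), at a log2 fold change of -0.26 (SE 0.12, adjusted p = 0.265). DESeq2 called 0 of the 9.

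**Figure D2:**
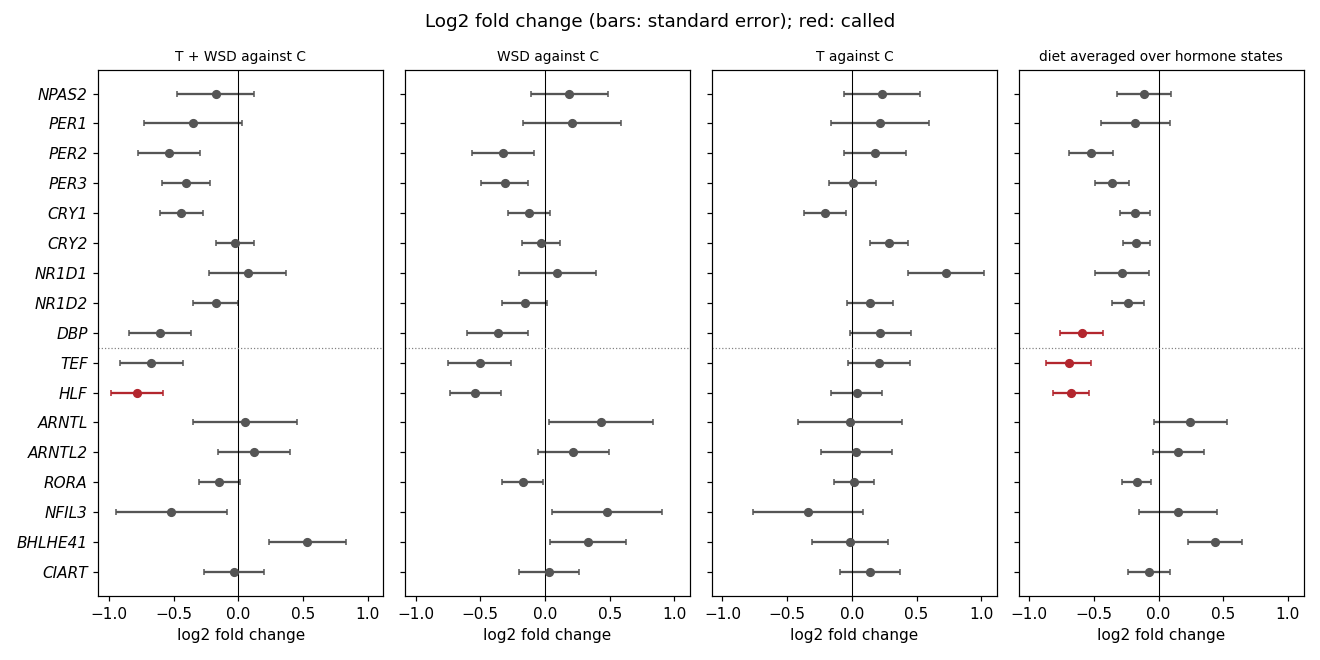
Log2 fold change with its standard error (horizontal bars) for the 9 clock genes, above the dotted line, and 8 further genes of the loop, below it, in *T* + *WSD*, *WSD* and *T* against *C* and for the diet averaged over hormone states. *RORB*, the other tested further gene, is not drawn. Red marks a call. *DBP*, *TEF* and *HLF* lie together at -0.60 to -0.70 for the averaged diet.

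Of the 9 tested further genes of the loop, 0 were called by edgeR in *WSD* or *T* against *C*, as for all tested genes (0%). In these comparisons 3 and 0 of the 9 had an unadjusted p under 0.05, beside 18.5% and 8.63% of all tested genes. In *T* + *WSD* against *C*, 1 of the 9 was called lower (*HLF*, beside 5.29% of all tested genes), and for the averaged diet 2 of the 9 were (*HLF* and *TEF*, beside 2.87%). The list as a whole was mixed. In *T* + *WSD* against *C*, 4 of the 9 log2 fold changes were positive and 5 negative, with a median of -0.03 and a highest of 2.08. For the averaged diet, 5 were positive and 4 negative, with a median of 0.15 and a highest of 1.35. *HLF* and *TEF* encode the D-box factors related to DBP. *HLF* (ENSMMUG00000022627) had 11.7, 14.9 and 16.4 CPM in *C* as lowest, median and highest values, and 7.52, 7.92 and 10.5 in *T* + *WSD*. All 6 *T* + *WSD* animals lay below every control, a separation that 7.61% of all tested genes showed in this comparison. In *WSD*, 4 of 6 animals lay below every control, with values of 7.03, 9.74 and 12.8, and in *T* the values were 9.88, 13.4 and 21.8. *HLF* had a log2 fold change of -0.78 (SE 0.20, adjusted p = 0.0123) in *T* + *WSD* against *C* and -0.68 (SE 0.14, adjusted p = 0.00890) for the averaged diet. Both calls stood in all 24 fits that left out 1 animal. In the 16 libraries with a low share of the most abundant gene, the first was -0.77 with an adjusted p of 0.0965. With the mesothelium covariate they were -0.97 and -0.79, without a call, and 0 of all tested genes were called in either comparison.

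*TEF* (ENSMMUG00000005221) had 20.4, 31.8 and 65.5 CPM in *C*, and 25.3, 40.5 and 55.7 in *T*. The values were 14.3, 26.7 and 31.0 in *WSD*, and 16.9, 21.7 and 30.2 in *T* + *WSD*. None of the 12 animals on the Western-style diet passed 31.0 CPM, a level that 8 of the 12 on chow exceeded. The log2 fold change for the averaged diet was -0.70 (SE 0.17, adjusted p = 0.0163), and without *C* animal 1, the highest of all at 65.5 CPM, it was -0.55 with an adjusted p of 0.0274, under the fold threshold. In *T* + *WSD* against *C* it was -0.67 (SE 0.24, adjusted p = 0.0583), and the adjusted p fell under 0.05 without *C* animal 5, *T* animal 13, *WSD* animal 23 or *T* + *WSD* animal 7, at 0.0232 to 0.0489, with log2 fold changes of -0.79 to -0.67. Without *C* animal 1 it was -0.39, with an adjusted p of 0.245.

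The gene of BMAL1, *ARNTL* (ENSMMUG00000009690), had 3.42, 8.87 and 11.7 CPM in *C* and 3.12, 6.12 and 12.6 in *T*. The *WSD* values were 6.10, 7.40 and 19.6, and those of *T* + *WSD* 4.04, 7.81 and 12.7. Its log2 fold change was 0.05 (SE 0.40, adjusted p = 0.957) in *T* + *WSD* against *C* and 0.43 (SE 0.40, adjusted p = 0.585) in *WSD* against *C*.

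Of the 8 tested kinases and ubiquitin ligases that act on clock proteins, 0 were called by edgeR in any comparison. At most 2 of the 8 had an unadjusted p under 0.05. That number was reached in *T* + *WSD* against *WSD*, the interaction and the averaged diet, beside 20%, 13.5% and 29.1% of all tested genes. *CSNK2B*, the regulatory subunit of casein kinase 2, had the smallest adjusted p of the 8, at a log2 fold change of -0.18 (SE 0.07, adjusted p = 0.0793) for the averaged diet. Of the 8 clock-controlled output genes, 1 was called lower in *T* + *WSD* against *C*, beside 5.29% of all tested genes. It was *WEE1*, a kinase that holds back cell division. *WEE1* had 4.95, 9.60 and 11.97 CPM in *C* and 3.87, 4.98 and 5.73 in *T* + *WSD*, with a log2 fold change of -0.89 (SE 0.24, adjusted p = 0.0155) that was called in all 24 fits without 1 animal. It was not called with the mesothelium covariate, at -1.01, where 0 of all tested genes were called.

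The relation between the clock genes was followed across the 24 animals, on log2 CPM after the group means were taken off, which removes the differences between groups. Each of the 36 pairs was tested with 100000 permutations of animals within groups, and p-values were adjusted over the 36. By Pearson's r, 15 pairs passed an adjusted p of 0.05, 13 positive and 2 negative, and 16 passed by Spearman's rho, among them all 15. The 15 kept their sign without the 2 animals farthest from the median of the gene on the x axis. They also kept it in the 16 libraries with a low share of the most abundant gene. Since clock genes varied together, the counts above of clock genes with the same sign are not counts of independent observations.

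The 5 closest pairs joined *PER2*, *PER3*, *CRY2*, *NR1D2* and *DBP*. For *CRY2* and *NR1D2*, r was 0.79 (permutation p = 0.00012, adjusted 0.0014) and rho was 0.74 (p = 0.00021, adjusted 0.0015), with an r of 0.63 without the 2 farthest animals. For *PER3* and *NR1D2*, r was 0.77 (p = 5e-05, adjusted 0.0011) and rho 0.79 (p = 5e-05, adjusted 0.0009), with an r of 0.73 without the 2. For *PER3* and *DBP*, r was 0.76 (p = 0.00021, adjusted 0.0019) and rho 0.76 (p = 0.00018, adjusted 0.0015), with an r of 0.74 without the 2. *PER3* with *CRY2* (r = 0.74) and *PER2* with *CRY2* (r = 0.69) came next. In the 16 libraries with a low share of the most abundant gene these 5 had an r of 0.68, 0.73, 0.84, 0.76 and 0.66, in that order. An animal with more *PER3* than its group mean tended to have more of the other 4 as well. Among these 5 genes, only *PER2* with *DBP* did not pass by r (0.53, adjusted permutation p = 0.0513). That pair passed by rho (0.59, adjusted permutation p = 0.0202).

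*NR1D1* had passing positive pairs with *PER3* (r = 0.62), *DBP* (0.58) and *CRY2* (0.54). The 2 negative pairs each set a further member, *NPAS2* or *CRY1*, against a REV-ERB gene. *NPAS2* ran against *NR1D2*, with an r of -0.57 (permutation p = 0.00713, adjusted 0.0281), a rho of -0.60 (p = 0.00563, adjusted 0.0160) and an r of -0.51 without the 2 farthest animals. *CRY1* ran against *NR1D1*, with an r of -0.53 (permutation p = 0.0100, adjusted 0.0281), a rho of -0.51 (p = 0.0199, adjusted 0.0447) and an r of -0.38 without the 2. In the low-share libraries these were -0.72 and -0.35. Of the PER genes, *PER1* had a passing pair with *PER2* only, at an r of 0.60 (permutation p = 0.00208, adjusted 0.0125), a rho of 0.62 (p = 0.00228, adjusted 0.0103) and an r of 0.54 without the 2.

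**Figure D3:**
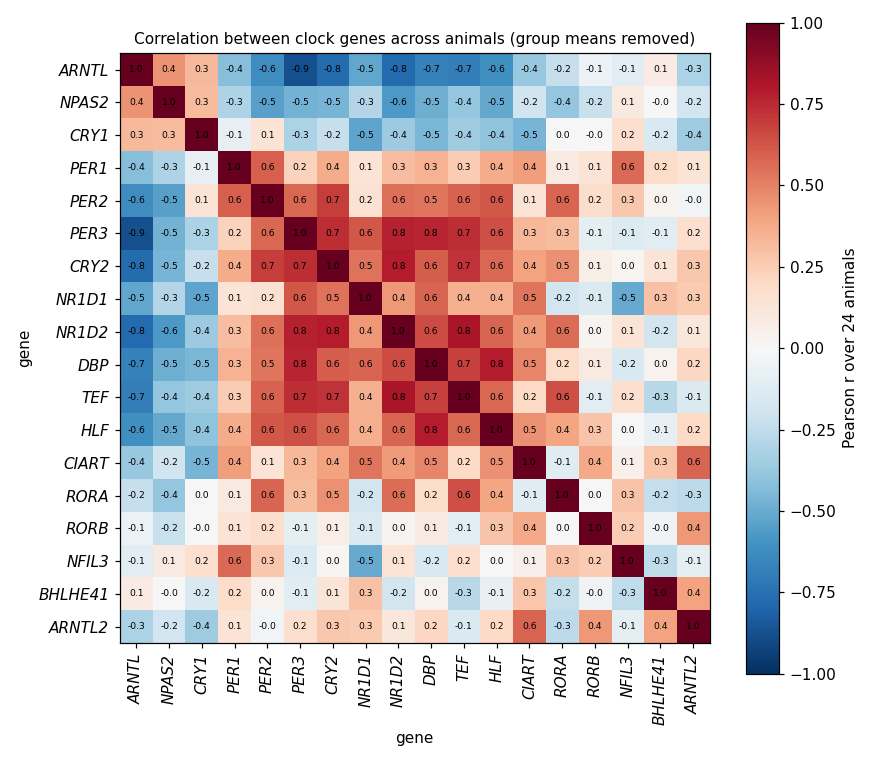
Pearson's r between the 9 clock genes and 9 further genes of the loop over 24 animals (log2 CPM minus the group mean), with red for positive and blue for negative and the value rounded to 1 decimal in each cell. *PER2*, *PER3*, *CRY2*, *NR1D2*, *DBP*, *TEF* and *HLF* form a red block, and the *ARNTL* row is blue across it.

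The 9 genes were then set against the 9 further genes of the loop, a family of 81 pairs that was added after the data were seen. By r, 16 passed an adjusted p of 0.05, 10 positive and 6 negative. *ARNTL* made 5 of the 6 negative ones. With *PER3* its r was -0.88 (permutation p = 1e-05, the smallest that 100000 permutations can give, adjusted 0.00081) and its rho -0.89 (p = 1e-05, the same limit, adjusted 0.00081), with an r of -0.85 without the 2 farthest animals and -0.90 in the low-share libraries. With *NR1D2* r was -0.78, with *CRY2* -0.77, with *DBP* -0.67 and with *PER2* -0.62, at adjusted p-values of 0.00081, 0.00081, 0.0102 and 0.0209. Of the other 4 members, none had a passing pair with *ARNTL*.

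*TEF* made 5 of the positive pairs, with *NR1D2* (r = 0.82), *PER3* (0.73), *CRY2* (0.72), *DBP* (0.68) and *PER2* (0.59). *HLF* made 4, with *DBP* (0.79), *PER3* (0.65), *NR1D2* (0.58) and *CRY2* (0.58). The remaining pairs were those of *NR1D1* with *CIART*, a repressor of the dimer (0.54), and with *NFIL3*, a repressor that competes for D-boxes (-0.50). No pair with *ARNTL2*, *RORA*, *RORB* or *BHLHE41* passed. *HLF* was also the gene most like *DBP* of all 11659 genes with a symbol and a mean of at least 1 CPM, by r over the 24 animals, with *PER3* next at 0.76, and *ARNTL* was the one most opposed to it, at -0.67.

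With the *ARNTL* level as a covariate in the fit, an alternative added after the data were seen, *DBP* was called in *T* + *WSD* against *C*, at a log2 fold change of -0.62 with an adjusted p of 0.0270. For the averaged diet *DBP* was then at -0.50 with an adjusted p of 0.0249 and *TEF* at -0.58 with an adjusted p of 0.0138, both under the fold threshold.

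*PER1* moved with the list of glucocorticoid-responsive genes, of which 5 of 8 were tested. Of 117 relations of the 9 genes with the mean levels of 11 gene lists and 2 library measures, this one alone passed the adjusted p of 0.05 by r, at 0.82 (permutation p = 2e-05, adjusted 0.0023). By rho it was 0.70 (p = 0.0008, adjusted 0.0936), and without the 2 farthest animals r was 0.60. *WSD* animal 20, with *PER1* at 132 CPM, had a sum of 1931 CPM over the 5 genes, against 346 to 811 in the other 23 animals, and its library is among the 8 with a high share of the most abundant gene. In the other 16 libraries r was 0.73. Of the 5 glucocorticoid-responsive genes, 0 were called in any comparison by edgeR. At most 1 had an unadjusted p under 0.05, in *T* + *WSD* against *WSD* and in the interaction, beside 20% and 13.5% of all tested genes. The smallest adjusted p of the 5 was that of *PDK4*, a kinase that limits glucose oxidation, at a log2 fold change of -1.17 (SE 0.49, adjusted p = 0.179) in *T* + *WSD* against *WSD*. Over the fits without 1 animal that value ran from -1.44 to -0.20, the latter without *WSD* animal 20, and in the 16 low-share libraries its sign turned, to 0.03. Of the 5 tested immediate early genes, 0 were called by edgeR. At most 3 had an unadjusted p under 0.05, in the interaction, beside 13.5% of all tested genes. *JUNB* came closest to a call, at -1.27 (SE 0.43, adjusted p = 0.102) in *T* + *WSD* against *WSD*. Without *WSD* animal 21 it was called, at -1.46 with an adjusted p of 0.0413, and without *WSD* animal 20 it was -0.88 with an adjusted p of 0.266.

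**Figure D4:**
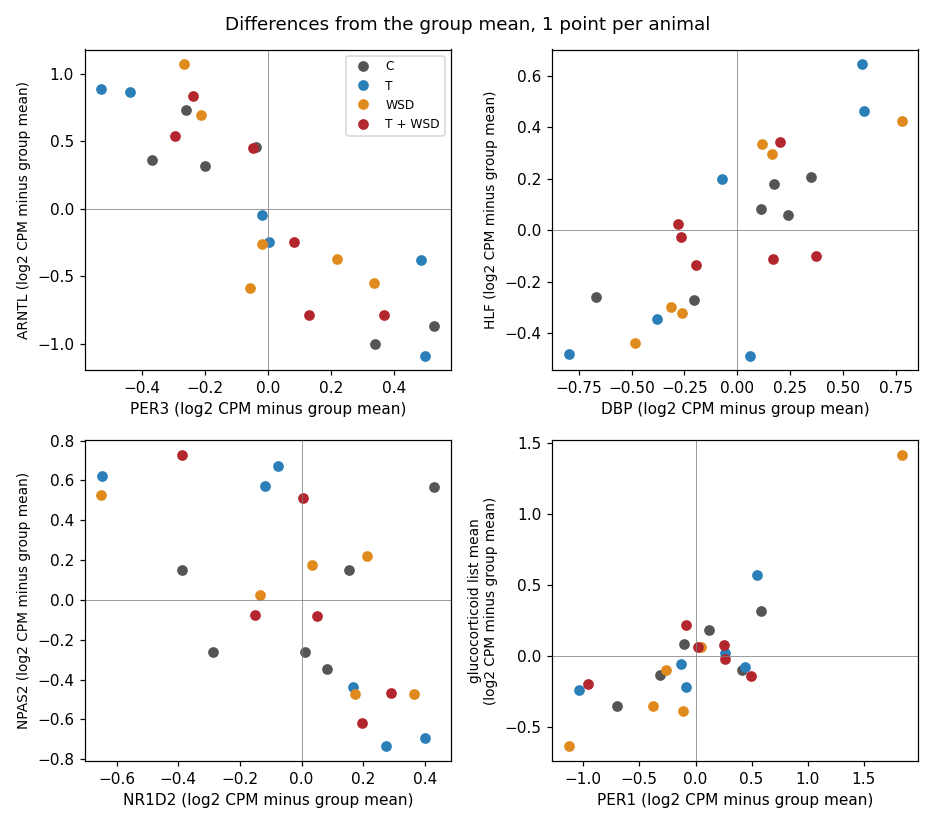
Log2 CPM minus the group mean in each of 24 animals, coloured by group, for *PER3* and *ARNTL*, *DBP* and *HLF*, *NR1D2* and *NPAS2*, and *PER1* and the mean of the glucocorticoid-responsive list. *ARNTL* lies lower where *PER3* is higher (r = -0.88), and the upper right point of the last panel is *WSD* animal 20.

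No clock gene had a passing relation with the mean level of the mesothelium markers. The strongest was that of *CRY1*, with an r of 0.51 (permutation p = 0.0183, adjusted 0.306), a rho of 0.35 (p = 0.114, adjusted 0.605) and an r of 0.33 without the 2 farthest animals. For *DBP*, r was -0.08 (permutation p = 0.725, adjusted 0.888) and rho -0.05 (p = 0.820, adjusted 0.937).

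The clock genes also differed in how much they varied between animals of the same group. The SD of log2 CPM within groups was 0.67 for *PER1*, 0.53 for *NR1D1*, 0.51 for *NPAS2*, 0.44 for *PER2* and 0.43 for *DBP*, above the median of 0.32 over all tested genes. It was 0.33 for *PER3*, 0.32 for *NR1D2*, 0.30 for *CRY1* and 0.27 for *CRY2*. The lowest library of *NPAS2* held 6 counts. Over all 24 animals the highest level was 8.49 times the lowest for *PER1*, 5.69 times for *NR1D1* and 3.15 times for *DBP*.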

How the data were processed

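The authors extracted RNA from omental WAT, depleted ribosomal RNA, sequenced 1 read per fragment, trimmed with Trimmomatic (0.36) and aligned to rheMac8 with STAR (2.5.2b), per the labels and the paper's methods. They deposited raw counts per gene, 1 column per animal, without normalization, and the counting tool and its strand setting are not given in the sources used here. Overlapping and antisense genes may therefore share reads.

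Groups came from the sample labels, and identifiers from the gene name table. The members and gene lists were chosen with earlier results of these data known. Genes named outside the members are listed genes called in any of 7 comparisons, the listed gene with the smallest adjusted p, and the 5 genes with the highest and the lowest r with *DBP* and *NPAS2*. *BHLHE40*, *TSC22D3*, *DUSP1*, *KLF9*, *EGR1*, *IER2*, *LRRN4*, *C1QA* and *C1QB* had no identifier, and *FBXL21* failed the filter. Some genes of the lists and of those lookups are not reported here. No sequence, position or length was used here.

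Counts were filtered with filterByExpr (minimum count 10, minimum total 15), scaled with TMM and fitted by the edgeR (4.0.16, R 4.3.3) quasi-likelihood test, robust, in 1 fit of 24 libraries. P-values are two-sided and Benjamini-Hochberg adjusted over 15207 genes. A call needed a fold change over 1.5 with an adjusted p under 0.05 (only an adjusted p under 0.1 for the interaction). Those p-values stand for the spread between animals, 6 per group. Log2 CPM used a prior count of 2. The steps were tested on simulated counts. Alternatives were DESeq2 (1.42.0), other scalings, no filter, covariates, fewer libraries and leaving out each animal. The *ARNTL* covariate and the 81 pairs were added after the data were seen. No 2 of the 60 pairs of libraries within groups held identical counts. Floors cover counting error only.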

Additional observations from a re-analysis of the deposited data

Results flagged for a closer look

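In 1 of the 36 combinations of clock gene and group, an extreme animal stood apart by a gap test on 6 animals, which flags about 1 group in 20 by chance. *CRY2* in *T* animal 13 was 93.4 CPM, where the next lowest *T* animal was at 133 CPM and the highest at 160. That library is among the 8 in which the most abundant gene took a high share of the counts, 19.9%.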

How the results depend on the processing

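The number of clock genes called was 0 under every alternative run for *WSD* against *C*, *T* against *C*, *T* + *WSD* against *WSD*, the interaction and the averaged testosterone effect. For *T* + *WSD* against *C*, where it was 0, it was 1 in the fit on the groups compared and 1 with the *ARNTL* covariate, and from 0 to 1 over the 24 fits that left out 1 animal. For the averaged diet, where it was 1, it was 0 with DESeq2, 0 with RLE scaling, 0 with the mesothelium covariate, 0 with the *ARNTL* covariate and 2 without a fold threshold, and from 0 to 2 over the fits that left out 1 animal. In the fits with RLE scaling and with DESeq2 *DBP* stayed at -0.58, so the fold threshold decided the call. The adjusted p of *DBP* over the alternatives other than leaving out 1 animal ran from 0.0110 to 0.994. For *PDK4* in *T* + *WSD* against *WSD* the sign turned in the 16 low-share libraries (0.0296). The cause was not tested.

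Over all tested genes, calls by edgeR and DESeq2 were 0 and 238 in *WSD*, 0 and 7 in *T*, 124 and 430 in *T* + *WSD* against *WSD*, 123 and 481 for the interaction, and 0 and 129 for averaged testosterone. They were 1522 and 1894 in *T* + *WSD* against *C*, and 806 and 1122 for the averaged diet. With the mesothelium covariate, edgeR called 0 of all tested genes in either of these last comparisons. The number of correlated pairs among the clock genes was 12 to 16 under all alternatives. No paired analysis was possible because the animal numbers run from 1 to 24 and no number is shared between groups. Low counts limit what can be read from *CLOCK*, with 12 counts in all, and from *NPAS2*. Why the *CLOCK* row held so few counts was not tested.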

Other observations

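The genes whose levels ran most closely with *NPAS2*, and most against it, were looked up in the same way as for *DBP*. Of the 11659 genes with a symbol and a mean of at least 1 CPM, those with a high r over 24 animals included *CAD*, an enzyme of pyrimidine synthesis (0.76), *S100A16* (0.72), *NSMF* (0.71) and *MCRS1* (0.71). Those with the lowest were *LNX1* (-0.77), *ZFYVE16* (-0.75), *NAALADL2* (-0.71), *CTNNA3* (-0.71) and *MBLAC1* (-0.71). These were picked from the same animals as the extremes of all genes, and no test was made of them.

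For *DBP*, the genes with the highest r after *HLF* and *PER3* were *SPAG8* (0.75), *SNORA61* (0.73) and *PLCH2* (0.70), and those with the lowest after *ARNTL* were *UBE2N* (-0.65), *CCN2* (-0.62), *PRCC* (-0.62) and *MIR5047* (-0.61). *SPAG8* and *PLCH2* had mean levels near the minimum, at 1.06 and 1.64 CPM. *SNORA61* and *MIR5047* are genes of small RNAs.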
